A study of Mus musculus with 9 samples.

Results

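Rgs1, Rgs2, Rgs10, Pde4b, Pde2a, Adcy7 and Cnr2 are 7 genes of G protein and cyclic nucleotide signalling, followed here in macrophages that received bacterial lipopolysaccharide (LPS). All probe sets carrying these 7 gene symbols were taken, which gave 11 of the 22690 probe sets on the array and 7 of the 12393 genes named there. Each probe set is a group of short probes read together as 1 value. The set was selected on measured log2 values: Rgs2 was lower and Pde4b higher after LPS in wild-type cells, so the wild-type time course below describes what chose the genes and carries no test. All 7 members were chosen with earlier results of these data known. The p-values of the other members may thus also rest on values that informed the choice. All 11 probe sets reached log2 = 6, the level asked of a probe set before it was tested, and did so on every array, as did 16712 probe sets on at least 1 array.

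The cells were peritoneal macrophages drawn into the cavity by thioglycollate, an irritant. They came from MyD88 KO mice, TRIF KO mice and wild-type mice, with the strain behind each genotype not stated in the labels. Each genotype was studied at 0 h (unstimulated), 1 h and 4 h of 100 ng/ml LPS, with 1 array for each of the 9 groups. MyD88 and TRIF are the adaptor proteins through which Toll-like receptor 4, the LPS receptor, signals. MyD88 starts the early inflammatory response, and TRIF leads to type I interferon. The labels name no Cre or promoter for the knockouts.

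G protein-coupled receptors act through heterotrimeric G proteins, whose alpha subunit is active while it holds GTP. RGS proteins speed up the hydrolysis of that GTP and so end the signal. Adenylyl cyclases, switched on by Gs and off by Gi, make cyclic AMP, which in macrophages dampens the production of inflammatory cytokines. Phosphodiesterases break cyclic nucleotides down: Pde4b is specific for cyclic AMP, and Pde2a cleaves cyclic AMP and is stimulated by cyclic GMP. Adcy7 is an adenylyl cyclase of blood cells, and Cnr2 is the cannabinoid receptor of immune cells, which couples to Gi.

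The promoter of Rgs2 is shown with promoters 1 and 2 of the 4 that RefSeq listed for Pde4b. These genes were taken because they moved in opposite directions and each is known to respond to cyclic AMP, which acts through the CRE motif. Promoters 3 and 4 of Pde4b matched none of the motifs searched and are not printed. The promoters shown are the 250 bases before the start of transcription in RefSeq, build GRCm38.p6. The deposited values name no build, so these coordinates are those of RefSeq. Capitals mark the CRE half-site (TGACG, on either strand) in the promoter of Rgs2, chr1:144004150-144004399, minus strand, and in the first promoter of Pde4b, chr4:102421305-102421554, plus strand. In the second promoter of Pde4b, chr4:102569810-102570059, plus strand, they mark a match to the NF-kB motif.
Rgs2 promoter: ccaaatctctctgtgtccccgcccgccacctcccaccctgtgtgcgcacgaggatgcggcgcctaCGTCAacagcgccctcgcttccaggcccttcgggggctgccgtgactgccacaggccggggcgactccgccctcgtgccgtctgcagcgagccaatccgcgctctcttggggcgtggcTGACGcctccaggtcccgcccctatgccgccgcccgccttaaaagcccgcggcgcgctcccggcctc
Pde4b first promoter: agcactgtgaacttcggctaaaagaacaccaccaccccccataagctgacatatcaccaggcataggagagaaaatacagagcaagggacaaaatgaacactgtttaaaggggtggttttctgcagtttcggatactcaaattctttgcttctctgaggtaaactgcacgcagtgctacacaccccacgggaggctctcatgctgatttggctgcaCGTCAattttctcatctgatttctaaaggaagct
Pde4b second promoter: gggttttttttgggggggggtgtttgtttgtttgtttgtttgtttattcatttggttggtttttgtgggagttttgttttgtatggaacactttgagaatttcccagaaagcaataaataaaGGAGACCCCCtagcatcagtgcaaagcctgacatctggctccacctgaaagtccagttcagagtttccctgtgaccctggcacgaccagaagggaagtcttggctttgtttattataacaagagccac

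The half-sites of Rgs2 began 185 and 67 bases before the start, and its window also held 4 GC boxes (GGGCGG). The half-site of the first Pde4b promoter began 34 bases before the start, and the NF-kB match of the second 128 bases before it. The half-site also occurred in the first Adcy7 window, 28 bases before the start, so that the windows of 3 genes held it. RefSeq listed 16 promoters for 6 of the genes, and Rgs1 had none in the table. Of these 16 windows 3 held the half-site, 1 the NF-kB motif and 4 a GC box. Over all 32851 promoters of that table, 17.8% held the half-site, 3.9% the NF-kB motif and 32.7% a GC box on either strand. The full CRE (TGACGTCA, which contains the half-site), the ISRE core (GAAA, any 2 bases, GAAA) and the TATA box (TATAAA) matched none of the 16 windows and 1.55%, 2.98% and 12.4% of all promoters. AP-1 (TGANTCA) matched the second Adcy7 window and 6.75% of all promoters. A match says only that these letters occur in the window.

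Before the members, the arrays were checked as a whole. Array medians lay between 7.01 and 7.07. RMA, the method named in the submitters' notes, normalizes quantiles, so close medians would follow from it and are no check. Pairs of arrays correlated across probe sets at 0.985 to 0.998. All 12 macrophage markers were measured, with a mean level of 11.07 to 11.24 on every array. Myd88 itself read 9.30, 9.19 and 9.34 on the MyD88 KO arrays at 0, 1 and 4 h, 9.56, 9.54 and 9.96 on the TRIF KO arrays and 9.57, 9.58 and 10.002 on the wild-type arrays. Its probe set was lower in MyD88 KO but far from absent. Whether it lies inside the deleted part is not stated in the labels. The gene of TRIF was not analysed here.

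Rgs2, which acts mainly on Gq and can also restrain adenylyl cyclase, was lower after LPS on the TRIF KO and wild-type arrays at both times, and less so or not at all on the MyD88 KO arrays. Probe set 1419247_at read 10.02, 9.88 and 9.58 (log2) at 0, 1 and 4 h on the MyD88 KO arrays. It read 10.06, 9.45 and 8.97 on the TRIF KO arrays, and 10.16, 9.42 and 7.997 on the wild-type arrays. The 3 genotypes started within a narrow band and spread out by 4 h, with MyD88 KO highest and wild type lowest. The second probe set, 1419248_at, read 9.29, 9.51 and 9.19 on the MyD88 KO arrays, 9.59, 9.002 and 8.58 on the TRIF KO arrays and 9.81, 8.85 and 7.68 on the wild-type arrays. It gave the same order of genotypes at 4 h, while its unstimulated level was lowest in MyD88 KO.

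**Figure D1:**
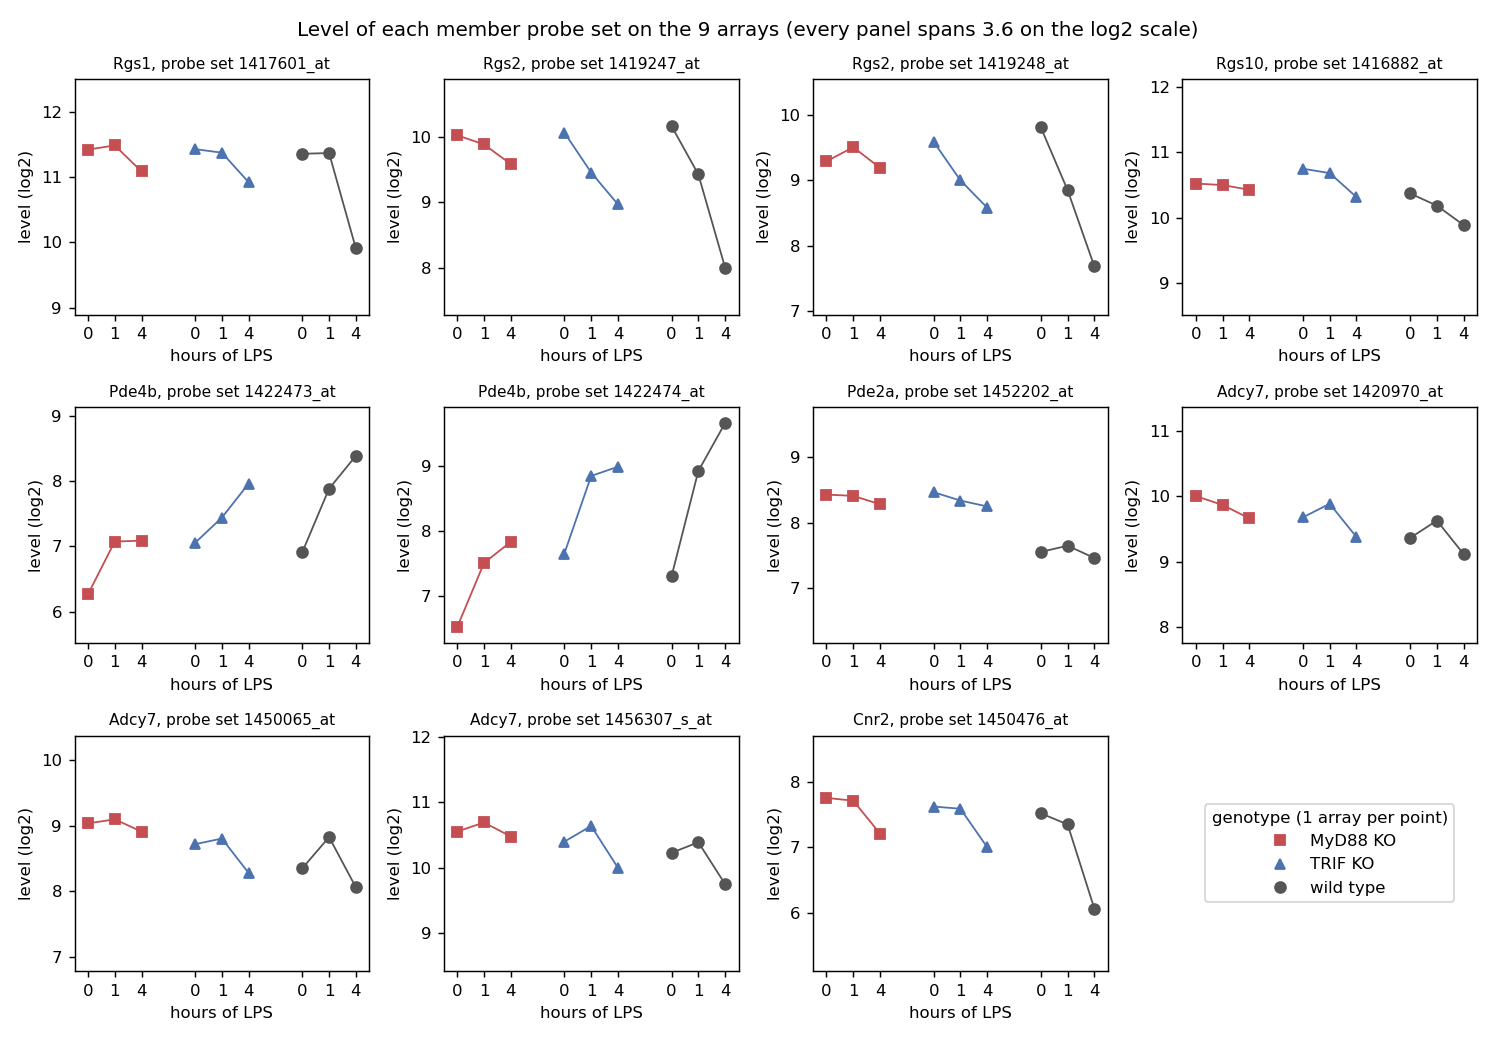
Level of each of the 11 probe sets (log2, vertical axis) at 0, 1 and 4 h of LPS (horizontal axis) in MyD88 KO (red squares), TRIF KO (blue triangles) and wild type (grey circles), 1 array per point. Every panel spans the same number of log2 units but has its own start; the Rgs2 panels fall least in MyD88 KO, the Pde4b panels climb in all 3 genotypes from a lower start in MyD88 KO, and Pde2a lies higher in both knockouts at each time.

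Against the unstimulated array of the same genotype, the 4 h differences of Rgs2 were -0.44 and -0.10 in MyD88 KO, -1.10 and -1.01 in TRIF KO, against -2.17 and -2.13 in wild type, for 1419247_at and 1419248_at in that order. A difference of -1 is a 2-fold lower level. In TRIF KO, these were 2 of 8 probe sets that were at least 2-fold lower at 4 h, which is 0.0479% of those tested, although 1419248_at was at -0.97 with arrays centred on reference transcripts. Only 3 and 6 of the 16712 probe sets had a lower difference there, and at 1 h only 1 and 2 did, with differences of -0.61 and -0.59. In MyD88 KO, 155 probe sets lay below 1419247_at at 4 h and 5529 below 1419248_at. At 1 h the 2 probe sets read -0.14 and 0.22 in MyD88 KO, so they gave opposite signs on these arrays.

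With no replicate arrays, time was tested by letting the 2 knockouts stand as replicates, in a limma fit of time and genotype to their 6 arrays that left out wild type. Nothing states that these arrays hold RNA of different animals or cultures. The p-values therefore cover the spread among the arrays alone, and that spread may be technical. The fit holds no interaction, so its error also takes in any difference between the 2 knockouts in their response. The 4 h differences of Rgs2 were unlike in the 2 knockouts, and the mean lies between them. Rgs2 fell by 0.77 ± 0.136 (log2, SE) at 4 h by 1419247_at (limma with Benjamini-Hochberg adjustment, adjusted p = 0.0175, with 2 of 2 knockouts lower), and by 0.49 without the TRIF KO array at 0 h. Probe set 1419248_at gave -0.55 ± 0.188 and did not pass (adjusted p = 0.155). Leaving out the MyD88 KO array at 0 h or at 4 h gave -0.98 and -0.81, with the TRIF KO array alone at that time. Whether the Rgs2 response differs between genotypes was not tested, since 1 array a group leaves no error for it.

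Rgs1, an RGS protein abundant in activated lymphocytes and in macrophages, differed little at 1 h and was lower at 4 h. It read 11.42, 11.48 and 11.09 on the MyD88 KO arrays, 11.43, 11.37 and 10.92 on the TRIF KO arrays and 11.36, 11.37 and 9.91 on the wild-type arrays. The 0 h and 1 h arrays of all genotypes lay close together, and the wild-type array at 4 h stood alone below the rest. Its 4 h differences were -0.33 in MyD88 KO, -0.51 in TRIF KO and -1.45 in wild type. Across the knockouts Rgs1 fell by 0.42 ± 0.0718 at 4 h (limma, adjusted p = 0.0154). Without the TRIF KO array at 4 h it read -0.36 and the call was lost (adjusted p = 0.0996).

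Rgs10, an RGS protein of microglia and macrophages known to restrain inflammatory activation, was lower at 4 h on the TRIF KO and wild-type arrays and differed less in MyD88 KO. Its levels were 10.52, 10.498 and 10.43 in MyD88 KO, 10.75, 10.68 and 10.31 in TRIF KO, against 10.37, 10.18 and 9.89 in wild type. At each time the wild-type array was the lowest of the 3. The 4 h differences were -0.095 in MyD88 KO, -0.43 in TRIF KO and -0.48 in wild type, and in TRIF KO 286 of 16712 probe sets lay lower. The time effect at 4 h in the knockouts, -0.26, did not pass (limma, adjusted p = 0.164). Without the MyD88 KO array at 4 h it was -0.42, with the TRIF KO array alone at that time.

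Pde4b, the phosphodiesterase that LPS is known to induce in monocytes and macrophages, was higher after LPS in every genotype. Probe set 1422474_at read 6.53, 7.51 and 7.83 on the MyD88 KO arrays, 7.66, 8.84 and 8.98 on the TRIF KO arrays and 7.31, 8.92 and 9.65 on the wild-type arrays. Probe set 1422473_at read 6.27, 7.07 and 7.09 in MyD88 KO, 7.06, 7.44 and 7.96 in TRIF KO, against 6.91, 7.88 and 8.39 in wild type. On both, the MyD88 KO array was the lowest of the 3 genotypes at each time, unstimulated cells included. The MyD88 KO level at 4 h was near the unstimulated level of TRIF KO. Unstimulated MyD88 KO read 6.27 by 1422473_at, close to log2 = 6, the level asked before testing.

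The 4 h differences of the knockouts lay closer to each other than to that of wild type. At 4 h Pde4b differed by 1.31 (1422474_at) and 0.82 (1422473_at) in MyD88 KO, by 1.33 and 0.91 in TRIF KO and by 2.34 and 1.47 in wild type. At 1 h the differences were 0.98 and 0.81 in MyD88 KO, 1.19 and 0.39 in TRIF KO, against 1.61 and 0.97 in wild type. Only 12 and 23 of 16712 probe sets lay higher in MyD88 KO at 1 h, a time at which 12 probe sets (0.0718%) were at least 2-fold higher and no member was. In TRIF KO 0.12% were 2-fold higher at 1 h, among them 1422474_at. At 4 h that probe set was the only member 2-fold higher in either knockout, beside 0.461% of all probe sets in MyD88 KO and 0.389% in TRIF KO. In wild type, where the rule looked, 1 member was at least 2-fold higher at 1 h (0.185% of all), and at 4 h 2 were higher (1.23%) and 4 lower (0.455%).

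**Figure D2:**
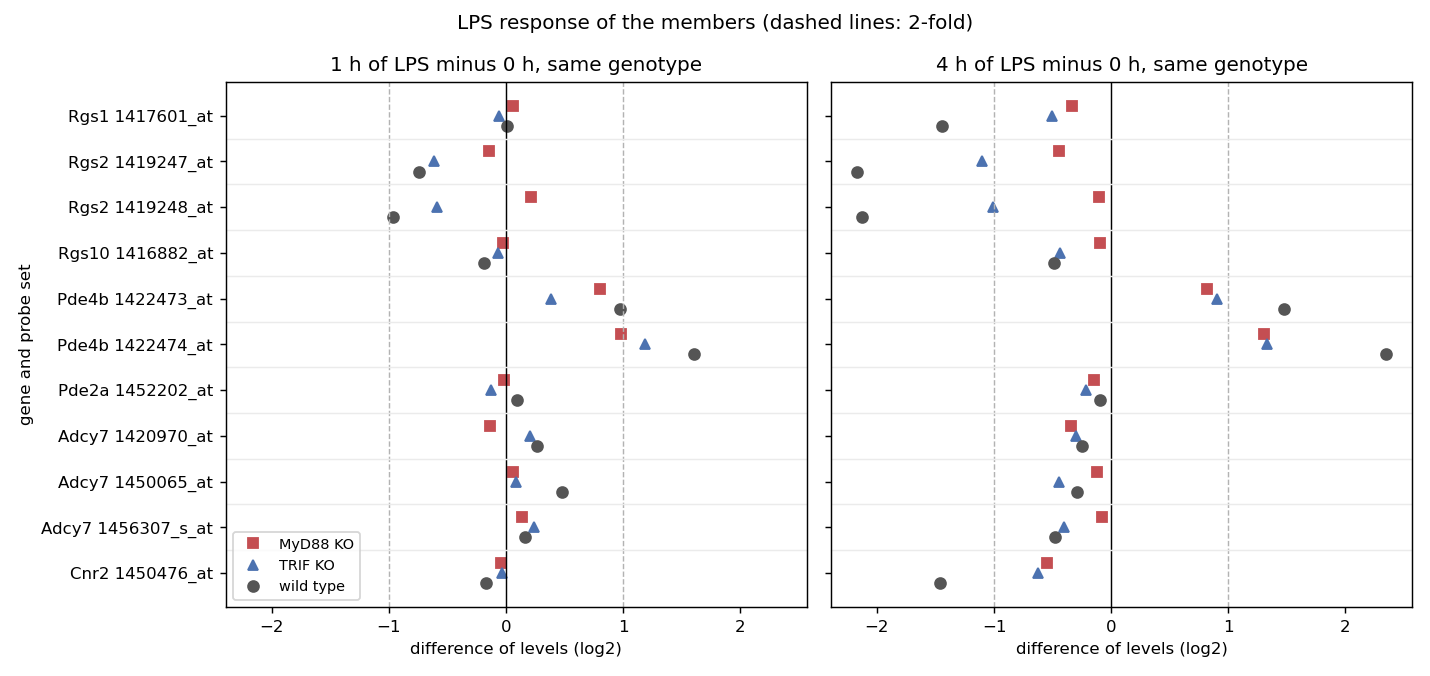
Difference of levels (log2, horizontal axis) of each probe set after 1 h (left) and 4 h (right) of LPS minus the 0 h array of the same genotype, for MyD88 KO (red squares), TRIF KO (blue triangles) and wild type (grey circles), 1 pair of arrays per point. Dashed lines mark 2-fold; at 4 h both Pde4b probe sets lie to the right in all genotypes, at 0.82 to 2.34, and Rgs1, Rgs2 and Cnr2 lie farthest to the left in wild type.

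In the limma fit to the knockouts, Pde4b was the member that rose at 1 h, by 1.08 ± 0.0759 with 1422474_at (adjusted p = 0.00480, higher in 2 of 2 knockouts). Its second probe set, 1422473_at, gave 0.60 ± 0.115 at 1 h and did not pass (adjusted p = 0.289). The first was 1 of 14 probe sets that passed at 1 h, 0.0838% of those tested. None passed as lower, with 509 of all probe sets and 1 member probe set lower at an unadjusted p under 0.05. Without the MyD88 KO array at 0 h 3 members passed, and without the 4 h array of either knockout or the TRIF KO array at 1 h 2 did. At 4 h Pde4b rose by 1.32 ± 0.0759 with 1422474_at (adjusted p = 0.000201) and by 0.86 ± 0.115 with 1422473_at (adjusted p = 0.00559). In all, 5 of the 11 member probe sets passed at 4 h, 2 higher and 3 lower, where 2.86% of all probe sets passed as higher and 2.18% as lower. Without the MyD88 KO array at 4 h 9 members passed. The median difference at 4 h was -0.28 over the members and -0.03 over all probe sets tested. Both probe sets called higher were those of Pde4b, and Rgs2 was among the lower. Rgs2 and Pde4b were chosen for their LPS response in wild type, so nothing is read from these member counts or this median. With every value under log2 = 6 raised to 6 before the fit, 0 probe sets passed at 1 h and 3 at 4 h. No member did, although no member value lies under 6. The estimates of the called members were unmoved (1.08 and 1.32 for 1422474_at of Pde4b), and only their errors and p-values changed.

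Pde2a set the genotypes apart and not the times. It read 8.43, 8.41 and 8.28 on the MyD88 KO arrays and 8.46, 8.34 and 8.25 on the TRIF KO arrays, against 7.55, 7.65 and 7.46 on the wild-type arrays. The lowest knockout array lay above the highest wild-type array, and LPS moved no genotype by more than 0.22. The 4 h time effect in the knockouts, -0.18, did not pass (adjusted p = 0.190).

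Adcy7 was read by 3 probe sets, of which 1456307_s_at carries the suffix for probes that may match more than 1 transcript. Probe set 1420970_at read 10.002, 9.87 and 9.66 in MyD88 KO, 9.68, 9.88 and 9.37 in TRIF KO, against 9.36, 9.63 and 9.11 in wild type. Probe set 1450065_at read 9.04, 9.10 and 8.91 in MyD88 KO, 8.72, 8.81 and 8.28 in TRIF KO, against 8.35, 8.83 and 8.06 in wild type. For 1456307_s_at the levels were 10.55, 10.69 and 10.47 in MyD88 KO, 10.39, 10.64 and 10.00 in TRIF KO, against 10.22, 10.39 and 9.75 in wild type. All 3 probe sets were lowest at 4 h in every genotype, and at 0 h and 4 h they ranked MyD88 KO above TRIF KO above wild type. In the knockouts the 4 h effects of -0.32, -0.28 and -0.24 did not pass (adjusted p = 0.103, 0.145 and 0.254). Without the MyD88 KO array at 4 h, 1450065_at and 1456307_s_at gave -0.45 and -0.43, with the TRIF KO array alone at that time. Probe set 1420970_at passed with an unmoved -0.32 without the 1 h array of either knockout (adjusted p = 0.0484 in both fits).

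Cnr2 followed the time course of Rgs1, with little difference at 1 h and a lower level at 4 h. It read 7.75, 7.71 and 7.21 on the MyD88 KO arrays, 7.62, 7.59 and 6.999 on the TRIF KO arrays and 7.52, 7.35 and 6.06 on the wild-type arrays. The wild-type array at 4 h stood alone below the other 8, close to log2 = 6, the level asked before testing. In the knockouts Cnr2 fell by 0.58 ± 0.0667 at 4 h (limma, adjusted p = 0.00292, lower in 2 of 2 knockouts), with 59 and 83 of 16712 probe sets lower in MyD88 KO and TRIF KO. The single-array differences were -0.55 in MyD88 KO, -0.62 in TRIF KO and -1.46 in wild type.

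B cells express Cnr2 strongly, and fewer such cells cannot be told apart from less RNA per cell in bulk samples. Of 12 B cell markers 11 were measured, with a mean level of 6.82 to 6.91 on the MyD88 KO arrays, 6.77 to 6.83 on the TRIF KO arrays and 6.99 to 7.17 on the wild-type arrays. Cd79b, part of the B cell receptor, read 6.51, 6.74 and 6.51 in MyD88 KO, 6.55, 6.56 and 6.39 in TRIF KO, against 7.52, 6.98 and 6.57 in wild type. Of the 8 markers tested, 0 passed for time in the knockouts at 1 h or 4 h (0 and 2 at an unadjusted p under 0.05 in limma), and 2 were lower in each knockout than in wild type, Cd79a and Ms4a1. Not all markers were lower: against wild type Ighm lay at 0.21 (MyD88 KO) and 0.13 (TRIF KO), while Cd22 lay at 0.01 and -0.20, and none of these passed. These genes are named here because of their values. The part of these cells in the Cnr2 values was not tested.

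For genotype, limma was fitted to all 9 arrays with the 3 times as replicates. The error of this fit also takes in any difference between genotypes in their LPS response. The wild-type arrays serve both comparisons, which are therefore not independent. Strain, breeding and batch cannot be told apart from genotype here. In MyD88 KO, 6 member probe sets of 4 genes were higher than in wild type, where 3.87% of all probe sets were, and 2 were lower (2.68% of all). Those 2 were the probe sets of Pde4b, a gene chosen on the wild-type arrays, so nothing is read from their calls or their count. Without the 4 h array of MyD88 KO or of wild type, 5 members passed, and nothing is read from the 2 of Pde4b among them. With arrays centred on reference transcripts the split over all probe sets turned, from 646 higher and 448 lower to 289 higher and 549 lower. In TRIF KO, 2 members were higher (1.07% of all) and 0 lower (0.419%), and 0 were lower at an unadjusted p under 0.05. The median over the members was 0.48 for MyD88 KO and 0.28 for TRIF KO, beside 0.00 and 0.01 over all probe sets. These medians include Rgs2 and Pde4b, which the wild-type arrays chose, so nothing is read from them.

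Pde2a was higher by 0.82 ± 0.0657 in MyD88 KO (adjusted p = 2.43e-05) and by 0.80 ± 0.0657 in TRIF KO (adjusted p = 4.71e-05), at 3 of 3 times in each. The knockouts differed from each other by 0.02 ± 0.0657 in Pde2a (adjusted p = 0.958). Adcy7 was higher in MyD88 KO by 0.48 ± 0.0818, 0.60 ± 0.0997 and 0.45 ± 0.0883 for 1420970_at, 1450065_at and 1456307_s_at (adjusted p = 0.00567, 0.00447 and 0.0111), each at 3 of 3 times. The last of these calls was lost without the wild-type array at 4 h (0.38, adjusted p = 0.0698) and without the MyD88 KO array at 4 h (0.32, adjusted p = 0.0569). In TRIF KO the same probe sets gave 0.28, 0.19 and 0.22 and did not pass (adjusted p = 0.166, 0.477 and 0.326). MyD88 KO lay above TRIF KO by 0.42 ± 0.0997 in 1450065_at, which missed the threshold (adjusted p = 0.0605). It passed without the wild-type array at 0 h or at 1 h (0.42, adjusted p = 0.0449 and 0.0348) and without the MyD88 KO array at 1 h (0.53, adjusted p = 0.0344). Markers of fibroblasts moved the same way as Pde2a and Adcy7: 3 of 5 tested were higher in each knockout, with a mean level of 6.64 to 6.70 in MyD88 KO, 6.54 to 6.67 in TRIF KO and 6.26 to 6.32 in wild type over the 7 measured. Their part in these results was not tested.

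Rgs10 was higher by 0.34 ± 0.0807 in MyD88 KO (adjusted p = 0.0298) and by 0.43 ± 0.0807 in TRIF KO (adjusted p = 0.0210), at 3 of 3 times in each. Both calls were fragile. That for MyD88 KO held in 3 of the 9 fits that left out 1 array and was lost without the 1 h or 4 h array of wild type or of MyD88 KO or the 0 h or 1 h array of TRIF KO (0.23 to 0.36, adjusted p up to 0.209). That for TRIF KO held in 4 of 9 and was lost without the 1 h or 4 h wild-type array or any TRIF KO array (0.39 to 0.49, adjusted p up to 0.201). Cnr2 was higher in MyD88 KO by 0.58 ± 0.144 (limma, adjusted p = 0.0341), with differences of 0.24, 0.36 and 1.15 at 0, 1 and 4 h. This call was lost without the same 6 arrays as for Rgs10, with 0.31 (limma, adjusted p = 0.0578) without the wild-type array at 4 h. Centring on reference transcripts also ended the calls of Rgs10 (0.27) and Cnr2 (0.52) in MyD88 KO. Raising values under log2 = 6 to 6 ended both calls of Rgs10 and that of Cnr2, with their estimates unmoved. In TRIF KO, Cnr2 gave 0.43 and did not pass (adjusted p = 0.241), and Rgs1 gave 0.45 in MyD88 KO and 0.36 in TRIF KO without passing (adjusted p = 0.171 and 0.442).

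**Figure D3:**
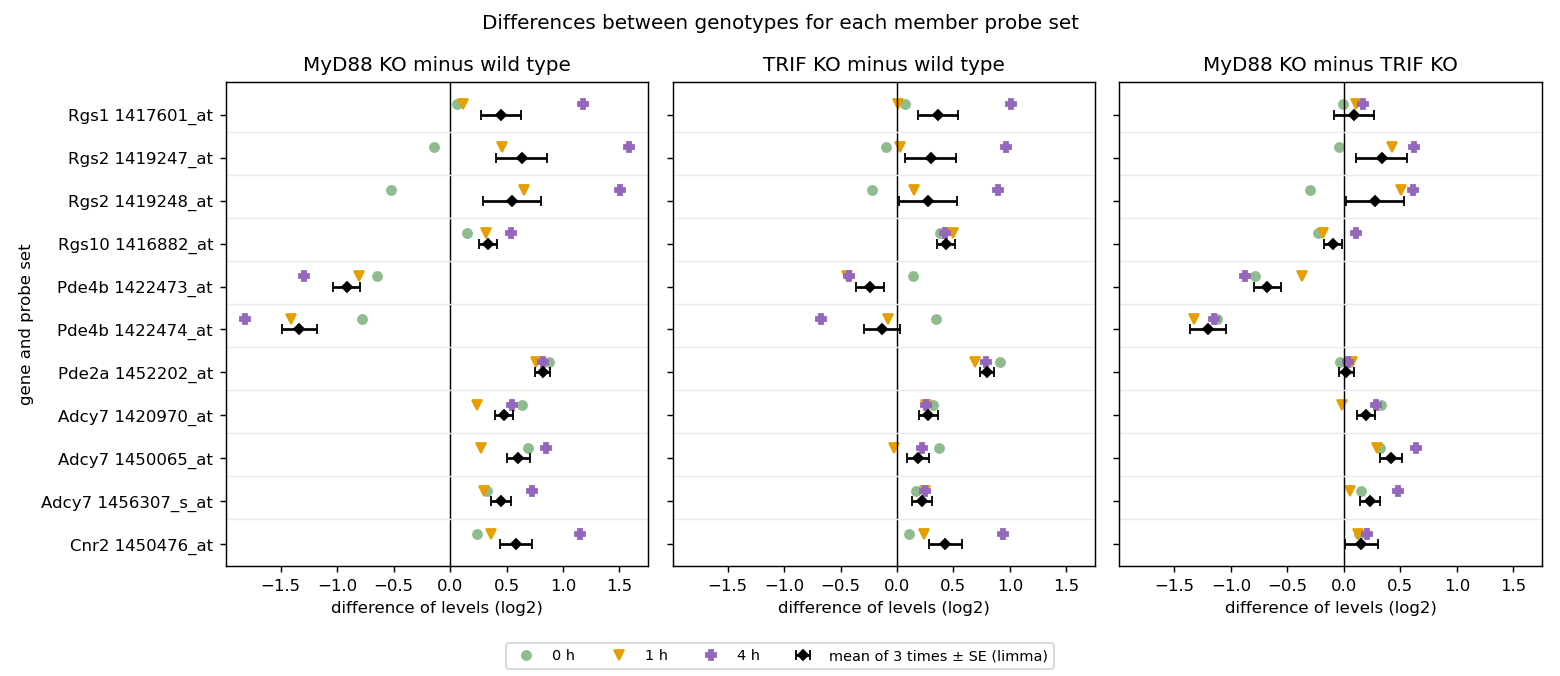
Difference of levels (log2, horizontal axis) between genotypes for each probe set, at 0 h (green circles), 1 h (orange triangles) and 4 h (purple crosses), with the mean over the 3 times and its limma SE (black diamonds and bars). Pde2a differs alike at all times in both knockouts, at 0.69 to 0.91, Pde4b lies left of 0 in MyD88 KO against either other genotype, and the Rgs1, Rgs2 and Cnr2 differences from wild type are largest at 4 h.

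Pde4b was the member called between the knockouts in the mean over the 3 times. At 4 h alone, MyD88 KO also lay above TRIF KO by 0.62 and 0.61 in Rgs2 and by 0.63 in 1450065_at of Adcy7. Differences at a single time were not tested. Pde4b was lower in MyD88 KO than in TRIF KO by 1.13, 1.33 and 1.15 (log2) with 1422474_at at 0, 1 and 4 h, and by 0.79, 0.37 and 0.87 with 1422473_at. The mean over the 3 times was -1.20 ± 0.157 (limma, adjusted p = 0.00171) and -0.68 ± 0.123 (adjusted p = 0.0144). The wild-type arrays, which chose Pde4b, enter the error of this fit but not the difference. These p-values therefore rest in part on the arrays that chose the gene. Probe set 1422473_at lost its call without the MyD88 KO array at 4 h, the TRIF KO array at 0 h or that at 4 h (-0.53 to -0.67, adjusted p up to 0.122), and with values under log2 = 6 raised to 6 (-0.68, adjusted p = 0.0906). These were the 2 members called in this comparison, where 0.73% of all probe sets were higher and 1.33% lower. Probe set 1422474_at was also the single member at least 2-fold lower at 0, 1 and 4 h, times at which 0.156%, 0.156% and 0.168% of all probe sets were. Centring changed the split over all probe sets here to 70 higher and 210 lower, against 122 and 223.

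For Rgs2 and Pde4b no p is given against wild type, and no call there is read as a result, since the wild-type arrays chose them. Rgs2 averaged 0.63 and 0.55 above wild type in MyD88 KO and 0.30 and 0.28 above it in TRIF KO. The values came from the stimulated cells: at 0 h Rgs2 lay 0.14 and 0.52 below wild type in MyD88 KO, and at 4 h it lay 1.59 and 1.51 above. Pde4b averaged -1.33 and -0.92 in MyD88 KO and -0.13 and -0.24 in TRIF KO, by 1422474_at and 1422473_at. In TRIF KO both Pde4b probe sets were above wild type at 0 h, by 0.35 and 0.14, and below it at 4 h, by -0.67 and -0.42. At 4 h, 4 member probe sets were at least 2-fold higher in MyD88 KO than in wild type (0.227% of all). They were Rgs1, both of Rgs2, and Cnr2. Both of Pde4b were at least 2-fold lower (0.533%). The rule chose Rgs2 and Pde4b on the wild-type arrays, so nothing is read from these counts. Rgs1 alone was 2-fold higher in TRIF KO at that time (0.0957%), by 1.01, or 0.97 with centred arrays.

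The other genes of the pathway were taken as 8 lists of 159 genes, of which 120 were measured and 98 tested. In the knockouts 2 of the 98 passed as higher at 1 h and 0 as lower, and at 4 h 3 were higher and 5 lower. Over all 10031 genes tested, 9 were higher at 1 h and 264 higher and 222 lower at 4 h. What was said above of raising values under log2 = 6 holds for these calls too. Of 10 other RGS proteins tested, 1 passed at 4 h: Rgs18, an RGS protein of blood cells, fell by 0.44 (adjusted p = 0.0114), with differences of -0.39 in MyD88 KO, -0.49 in TRIF KO and -1.40 in wild type. None of the 9 other phosphodiesterases and 8 other cyclases tested passed in any of the 5 limma comparisons. At an unadjusted p under 0.05 in the knockouts at 4 h, 2 of the 9 and 2 of the 8 did. Their median differences at 4 h in the knockouts were -0.12 and -0.08, beside -0.03 over all genes.

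Among 17 effectors of cyclic AMP and cyclic GMP, Pkib, an inhibitor of protein kinase A, passed at 4 h. It fell by 0.62 in the knockouts (adjusted p = 0.0322), with -0.33 in MyD88 KO, -0.91 in TRIF KO and -1.24 in wild type. Of 20 G protein subunits, Gna12, an alpha subunit, fell by 0.46 (adjusted p = 0.00963). Of 13 receptors that raise or lower cyclic AMP, Hcar2, the Gi-coupled niacin receptor, rose by 0.63 (adjusted p = 0.00369) and Ptgir, the Gs-coupled prostacyclin receptor, by 0.56 (adjusted p = 0.00604). The 4 h difference of Hcar2 was 0.52 in MyD88 KO, 0.74 in TRIF KO and 1.51 in wild type.

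Among 14 immediate targets of cyclic AMP and CREB, Dusp1, a phosphatase of MAP kinases, and Btg2, an antiproliferative gene, rose at 1 h, by 0.98 and 0.75 in the knockouts (adjusted p = 0.00767 and 0.0493). Their differences were 0.83 and 0.57 in MyD88 KO, 1.13 and 0.93 in TRIF KO, against 1.48 and 0.80 in wild type. Junb rose by 0.52 at 4 h (adjusted p = 0.0373). Of 8 genes of endocannabinoid turnover, 2 fell at 4 h: Daglb, which makes the Cnr2 ligand 2-arachidonoylglycerol, by 0.74 (adjusted p = 0.00343), and Abhd12, which can break it down, by 0.34 (adjusted p = 0.0312). Daglb differed by -0.57 in MyD88 KO, -0.90 in TRIF KO and -1.13 in wild type.

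**Figure D4:**
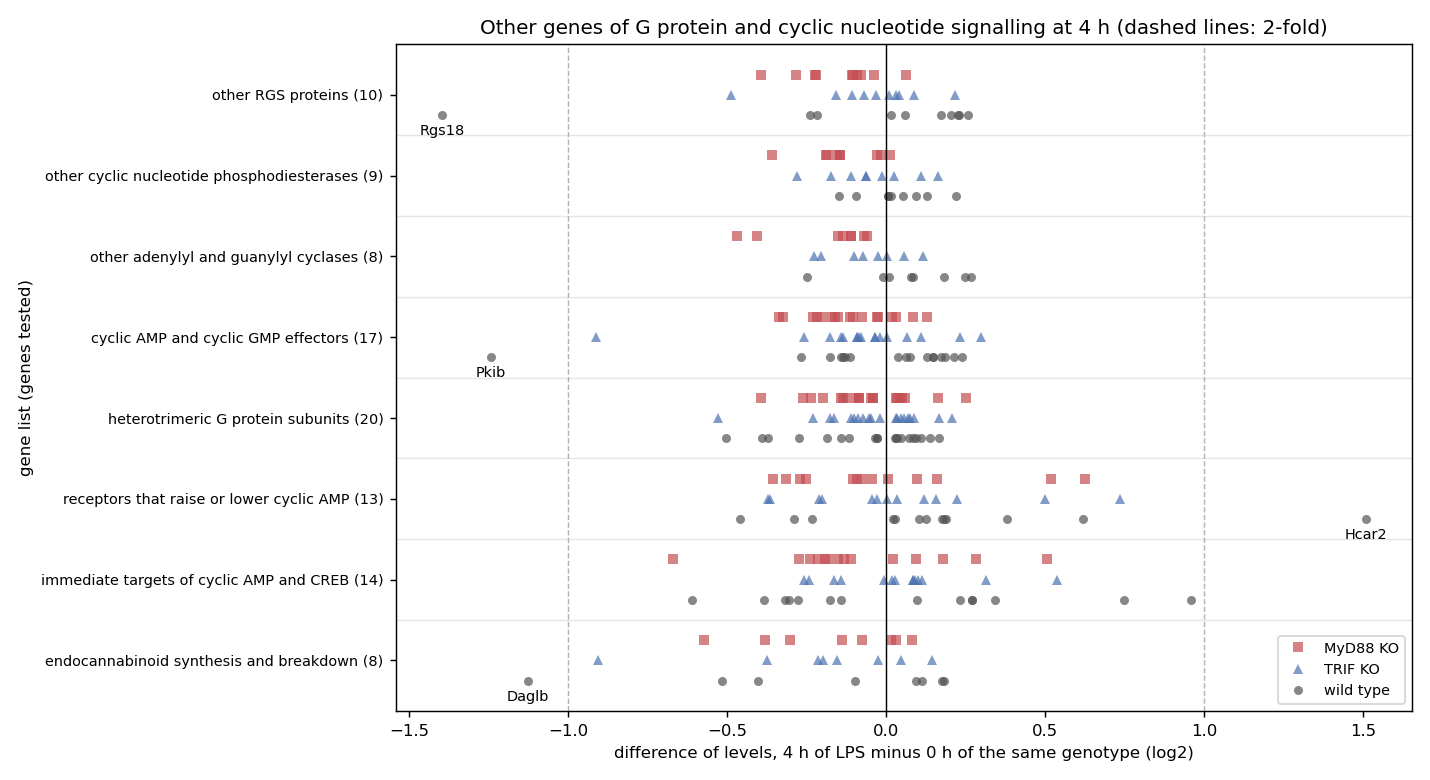
Difference of levels at 4 h of LPS minus 0 h of the same genotype (log2, horizontal axis) for the genes tested in each of 8 lists (vertical axis, number of genes in brackets), in MyD88 KO (red squares), TRIF KO (blue triangles) and wild type (grey circles), 1 point per gene. Most points lie near 0, and the 4 genes beyond the dashed 2-fold lines in wild type are Rgs18, Pkib, Daglb and Hcar2.

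Between genotypes, 7 of the 98 pathway genes were higher and 3 lower in MyD88 KO than in wild type, and 4 were higher and 0 lower in TRIF KO. Over all 10031 genes, 410 were higher and 249 lower in MyD88 KO, and 104 were higher and 38 lower in TRIF KO. Gnb1, a beta subunit of the G proteins, read 10.80, 10.87 and 10.83 in MyD88 KO and 10.96, 11.10 and 11.12 in TRIF KO, against 9.90, 9.63 and 9.63 in wild type. It was higher at every time in both knockouts, as Pde2a was, by 1.11 in MyD88 KO and 1.34 in TRIF KO (adjusted p = 2.26e-05 and 6.95e-06). Mgll, the main enzyme that breaks down 2-arachidonoylglycerol, read 8.31, 8.43 and 8.34 in MyD88 KO, 7.74, 7.61 and 7.58 in TRIF KO, against 7.46, 7.71 and 7.57 in wild type. MyD88 KO stood apart from both other genotypes in Mgll, by 0.78 from wild type and 0.72 from TRIF KO (adjusted p = 0.000113 and 0.000515).

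The genes whose levels ran most like each member were found by Pearson correlation over the 9 arrays, among 453 genes with a range of at least 1 (log2). These are descriptions, since all pairs share the same arrays and the same LPS and genotype steps. Both Rgs2 probe sets were most like Tsc22d3, a glucocorticoid-induced gene, and Rhov, a small GTPase (r = 0.97 to 0.99), followed by Irf8, Tst and Thbd. Pde4b was most like Prdm1, a transcriptional repressor (r = 0.98 and 0.99), with Phlda1, Maff and Ccrl2 among the next for both probe sets. Rgs1 was most like Rasa3, a GTPase-activating protein for Ras (r = 0.99), and Cnr2 was among its 5 genes (r = 0.98). Cnr2 was most like Kif3a (r = 0.99), Pdcd4 and Fbxo32, which was also among the 5 of Rgs1. Pde2a ran with genes that separate both knockouts from wild type, led by Cap1 (r = 0.98), which read 11.34 to 11.46 in MyD88 KO, 11.29 to 11.41 in TRIF KO and 8.69 to 9.29 in wild type, and by Gdpd3 (r = 0.98). Adcy7 was compared through 1450065_at alone and was most like Tecpr1 and Lrp1 (r = 0.96 for both).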

How the data were processed

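The deposited values are on the log2 scale, with 1 value for a probe set on each array. RMA, which corrects background and normalizes quantiles, is the method named in the submitters' processing notes. Its version is not given in the sources at hand. They were used as deposited. The 64 control probe sets were left out, and 16712 probe sets at log2 = 6 or more on at least 1 array were tested. Probe sets were named from the platform annotation (20393 with 1 symbol, 691 with several). A pathway gene took its probe set with the highest mean.

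limma 3.58.1 (lmFit, eBayes) in R 4.3.3 was fitted additively, without interaction: time and genotype on the 6 knockout arrays (2 residual degrees of freedom, prior 5.98) and on all 9 (4, prior 7.53). Tests were two-sided, adjusted by Benjamini-Hochberg over all 16712 probe sets at 0.05, and checked on simulated data. Single-array comparisons count differences of 2-fold and have no replicate check. Array number limits all precision.

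The members and lists were chosen with earlier results of these data known. Named genes were the members, up to 6 genes per list with the largest single-array difference, and the 5 genes most like each member with a range of 1. The alternatives were other filters, values under 6 raised to 6, 1 probe set a gene, eBayes with trend, centring on reference transcripts, all 9 arrays for time, a 1.5-fold call and leaving out each array.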

Additional observations from a re-analysis of the deposited data

Results flagged for a closer look

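The 1 h response of Rgs2 read by probe set 1419248_at ran in opposite directions between genotypes. The level was 0.22 above the unstimulated array in MyD88 KO and -0.96 from it in wild type, a gap of 1.18 (log2) between the responses. TRIF KO was -0.59 from its unstimulated array, which leaves a gap of 0.81 to MyD88 KO. Only responses of at least 0.2 on both sides were considered, and the difference was not tested, since each response rests on 1 pair of arrays. The other Rgs2 probe set, 1419247_at, gave -0.14 in MyD88 KO, -0.61 in TRIF KO and -0.74 in wild type at 1 h.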

How the results depend on the processing

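No paired analysis was possible because the labels give no replicate numbers to pair by, beyond the terms for time and genotype that each fit holds. Leaving out each array in turn, the probe sets called ranged from 8 to 79 for the knockouts at 1 h (1 to 3 members), 583 to 951 at 4 h (4 to 9), 457 to 1406 for MyD88 KO against wild type (5 to 10), 90 to 380 for TRIF KO against wild type (1 to 2) and 121 to 450 for MyD88 KO against TRIF KO (1 to 3). Raising values under 6 to 6 left 0 and 3 called at 1 h and 4 h with 0 members, 712 in MyD88 KO, 129 in TRIF KO and 177 between the knockouts, with 1 member in each of the last 2. Time fitted on all 9 arrays called 37 (2 members) and 1762 (9 members). That fit includes the wild-type time course that chose Rgs2 and Pde4b, so nothing is read from its member counts. The eBayes fit with trend called 29 at 1 h. With 1 probe set a gene, 557 were called at 4 h, 726 (5 members) in MyD88 KO, 160 in TRIF KO and 1 member between the knockouts, where fewer probe sets were tested. Centred arrays called 159 in TRIF KO. In the fits to the knockouts, leaving out an array leaves its time to the other knockout alone. Calls gained that way are not read as results. The cause of the other shifts was not tested.

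A call at 1.5-fold in place of 2-fold counted 2 members in MyD88 KO at 1 h and 2 at 4 h, 3 and 5 in TRIF KO, and 4 in wild type at 1 h. It counted 5 and 4 for MyD88 KO against wild type at 0 and 1 h, 1, 1 and 6 for TRIF KO against wild type at 0, 1 and 4 h, and 2 and 5 for MyD88 KO against TRIF KO at 0 and 4 h. Centring gave 2 members in wild type at 1 h and 0 for TRIF KO against wild type at 4 h.

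The signs that turned belonged to differences that had not passed. Centring turned Rgs1 and 1420970_at of Adcy7 at 1 h (-0.040 and -0.0094) and Pde2a between the knockouts (-0.014). Leaving out 1 array gave, for the knockouts at 1 h, -0.14 to 0.051 for Rgs10, -0.068 to 0.078 for Rgs1, -0.62 to 0.24 for 1419248_at of Rgs2, and -0.13 to 0.20 and -0.016 to 0.17 for 1420970_at and 1450065_at of Adcy7. For TRIF KO against wild type it gave -0.11 to 0.59 and -0.12 to 0.67 for Rgs2 and -0.39 to 0.12 for 1422474_at of Pde4b, with the turns of Rgs2 coming without the wild-type array at 4 h. Between the knockouts it gave -0.11 to 0.23 for Rgs1, -0.052 to 0.68 for 1419248_at, -0.00030 to 0.27 for Cnr2 and -0.016 to 0.067 for Pde2a.

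Without the MyD88 KO array at 0 h the 1 h effects of Rgs2 were -0.66 and -0.62, with the TRIF KO array alone at 0 h. The calls of Pde2a, of 1422474_at of Pde4b, of 1419247_at of Rgs2 and of Cnr2 at 4 h held in all fits that left out 1 array. So did those of 1422473_at of Pde4b at 4 h and of 1420970_at and 1450065_at of Adcy7 in MyD88 KO against wild type. With 1 array a group, single-array differences have no error and responses could not be compared between genotypes by a test.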
